A study of Mus musculus with 6 samples.

Results

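The nuclear-encoded genes of the respiratory chain and ATP synthase were compared between a normal and a myotonic dystrophy type 1 (DM1) myoblast model. A gene was taken as a member when its symbol began with Nduf, Uqcr or Atp5, began with Cox followed by 4, 5, 6, 7 or 8, or was *Sdha*, *Sdhb*, *Sdhc* or *Sdhd*, and names holding "-ps" were left out. Of 55421 genes in the count table, 98 were members: 41 complex I genes, 8 complex I assembly factors (Ndufaf genes), 4 of complex II, 8 of complex III, 19 of complex IV and 18 of complex V. C2C12 is a mouse myoblast line that fuses into myotubes when serum is withdrawn. The normal group was C2C12 stably transfected with GFP-CUG5, a GFP transcript carrying 5 CTG repeats, and the DM1 group was C2C12 with GFP-CUG200, carrying 200 repeats. Both lines went through transfection and G418 selection, and their total RNA was sequenced on differentiation day 4 in 3 libraries per group. The repeat thus comes from a transgene and not from *Dmpk*, and the labels give 1 line per repeat number. The study calls its libraries biological replicates, but the labels do not say whether they are separate cultures, so the p-values measure the spread between these libraries.

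The respiratory chain passes electrons from NADH (complex I) and succinate (complex II) through complex III to oxygen at complex IV, and complex V makes ATP from the proton gradient so built. Muscle fibres are rich in these enzymes, and myoblasts increase mitochondrial content as they differentiate. Most subunits are encoded in the nucleus, translated in the cytosol and imported, while the mitochondrial genome encodes the central membrane subunits, including the catalytic center of complex IV. Core is used here for the subunits of complexes I and III that carry cofactors or are named core proteins, for all of complex II, and for the head and the membrane ring of complex V. The peripheral stalk of complex V was kept as a role of its own, and the many small subunits around these are called accessory. Of 4 tested stalk genes, none was called in the main edgeR fit (all 6 libraries, no offset and no replicate block). Of all tested genes, that fit called 7.13% upregulated and 8.73% downregulated. The stalk gene *Atp5h* was called upregulated by DESeq2, with the replicate block and in 1 of 6 edgeR fits leaving out a library.

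The libraries held between 61707889 and 80957325 counts, of which the members took between 0.899% and 1.03%, with overlapping groups (0.985%, 0.910% and 0.899% in normal libraries 1 to 3, and 1.03%, 0.952% and 0.949% in DM1 libraries 1 to 3). The mitochondrial genome took 9.04%, 12.3% and 12.6% of the counts in the normal and 13.5%, 13.4% and 8.90% in the DM1 libraries, so that normal library 1 and DM1 library 3 were the lowest. A count here stands for 75 aligned bases and not for a fragment. Of the myotube marker genes, 8 of 10 were downregulated in the DM1 group and none was upregulated (median log2 fold change -0.60). Their summed TPM (a level scaled for transcript length and library size) lay between 8640 and 10302 in the normal libraries and between 4525 and 6546 in the DM1 libraries. The embryonic myosin *Myh3* and the perinatal myosin *Myh8*, with log2 fold changes of -1.32 ± 0.16 (SE) and -2.90 ± 0.14, passed both cutoffs used in the study, an adjusted p under 0.05 and a change of more than 1 on the log2 scale. Of 6 markers of undifferentiated or reserve myoblasts, 1 was upregulated (*Cd34*) and 1 downregulated (*Hes1*), and none of 4 proliferation markers was called (edgeR). The pan-leukocyte gene *Ptprc* and the adipocyte gene *Adipoq* had 0 counts in every library, and the summed TPM of the 5 markers of other cell types was between 0.320 and 0.708. In these bulk samples, fewer myotubes and less RNA per cell cannot be told apart, and the part of the myotube difference in the results that follow was not tested.

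Most subunit genes were not called, and those that were called had changed by small amounts in the DM1 group. Of the 93 members that passed the filter on low counts, 22 were upregulated and 6 downregulated at an adjusted p under 0.05 (edgeR), against 7.13% of all 19005 tested genes upregulated and 8.73% downregulated. The median log2 fold change was 0.23 over the tested members and 0.02 over all tested genes. None of the members was past both cutoffs, against 2.18% of all genes. The upregulated members had log2 fold changes between 0.32 and 0.62, and the largest decrease, in *Uqcrc1*, was -0.52. All 3 DM1 libraries lay above all 3 normal libraries in 32 members and below them in 10, and such a separation was seen in 37.2% of all tested genes.

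The count of called members depended strongly on single libraries, as did that of all genes. With normal library 1 left out, 4 members were upregulated and 0 downregulated, against 3.19% and 3.4% of all genes tested in that fit. The counts were 6 and 1 without normal library 2 (all genes 3.35% and 3.9%) and 5 and 0 without normal library 3 (2.74% and 2.45%). They were 16 and 7 without DM1 library 1 (6.4% and 7.0%), 4 and 0 without DM1 library 2 (3.01% and 2.9%), and 34 and 6 without DM1 library 3 (8.52% and 10.7%). Of the upregulated set, 3 genes, *Cox6a2*, *Ndufb3* and *Ndufv3*, were called in every one of these 6 fits, and none of the downregulated set was, but no called member changed sign in any of them. Counts of the same depth were simulated with 200 genes changed, drawn from genes of any function. The test recovered 13 of 100 genes changed by 0.5 on the log2 scale and 74 of 100 changed by 1. Many more genes were called in the main fit, so these shares do not give the recovery among the members. How many member changes of the size seen here were missed was not tested.

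The calls were also counted by role. None of the 22 core subunits tested was upregulated and 5 were downregulated (median log2 fold change -0.11), against 7.13% and 8.73% of all tested genes. At an unadjusted p under 0.05, 3 core subunits were higher and 8 lower, against 14.7% and 16.0% of all tested genes. DESeq2 called 1 upregulated (*Ndufv2*) and 6 downregulated, against 10.9% and 12.2% of the genes to which it gave an adjusted p. Of the 56 accessory subunits tested, 21 were upregulated and 1 (*Ndufa10*) was downregulated by edgeR (median 0.32). The shares of all tested genes were again 7.13% and 8.73%. Thus most members of either role did not pass the test, and 8 core subunits had a log2 fold change above 0. The roles were assigned from general knowledge after the values had been seen and carry no test. Relative to the mean of the normal libraries, the median core subunit stood at 0.02, -0.09 and -0.20 on the log2 scale in DM1 libraries 1, 2 and 3, and the median accessory subunit at 0.45, 0.30 and 0.17. In normal libraries 1, 2 and 3 the same medians were 0.06, -0.03 and -0.02 for the core and -0.02, 0.03 and -0.03 for the accessory subunits. DM1 library 3 was the lowest and DM1 library 1 the highest of the DM1 libraries for either role, and all of them are measured from the same normal mean. Without DM1 library 3, 3 core subunits were called upregulated and 5 downregulated (all genes 8.52% and 10.7%). Without DM1 library 1 the numbers were 0 and 6 (6.4% and 7.0%), and without normal library 2 they were 0 and 1 (3.35% and 3.9%). No core subunit was called without normal library 1, normal library 3 or DM1 library 2. Upregulated accessory subunits numbered 4, 5 and 5 without normal libraries 1, 2 and 3. Without DM1 libraries 1, 2 and 3 they numbered 15, 4 and 28.

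**Figure D1:**
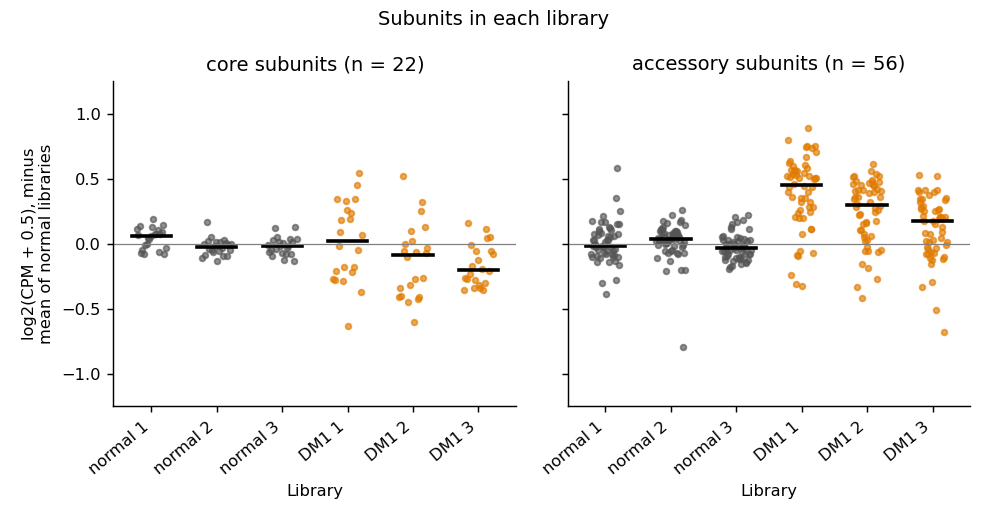
Each point is a core (left, n = 22) or accessory (right, n = 56) subunit in a library, as log2(CPM + 0.5) minus that gene's mean over the normal libraries, and black lines are medians. The medians of the DM1 libraries run from 0.02 to -0.20 for core subunits and from 0.45 to 0.17 for accessory subunits.

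Core and accessory subunits also differ in the length of their transcripts, and fold changes followed length across all genes in these libraries. The expressed length, derived from the deposited counts and TPM values, had a median of 1296 bases for the core and 655 bases for the accessory subunits, and 2195 bases over all tested genes. Of all tested genes under 500 bases, 11.2% were upregulated and 0.0889% downregulated (median log2 fold change 0.28). Of those from 500 to 1000 bases, 12.6% were upregulated and 1.6% downregulated, with a median of 0.25. The shares were 7.69% and 5.11% from 1000 to 2000 bases (median 0.07) and 5.35% and 11.1% from 2000 to 4000 bases (median -0.05). The medians of the members were 0.25 from 500 to 1000 bases (49 members) and 0.08 from 1000 to 2000 (26 members), close to those of all genes of these classes. They lay farther from 0 than the medians of all genes under 500 bases (0.37, 13 members) and from 2000 to 4000 bases (-0.18, 5 members). Under 500 bases 5 of the 13 members were upregulated and from 500 to 1000 bases 16 of the 49, larger shares than those of all genes of the same classes. Of the 93 tested members, 62 were shorter than 1000 bases, among them 21 of the 22 upregulated members, while 5 of the 6 downregulated members were longer. Across the 93 members, log2 fold change and log2 length had a Pearson r of -0.58 and a Spearman rho of -0.60. The values were -0.19 and -0.25 over all 19005 tested genes, -0.37 and -0.38 over the accessory subunits and -0.47 and -0.49 over the core subunits. These correlations describe genes that share the same libraries and are not independent replicates.

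**Figure D2:**
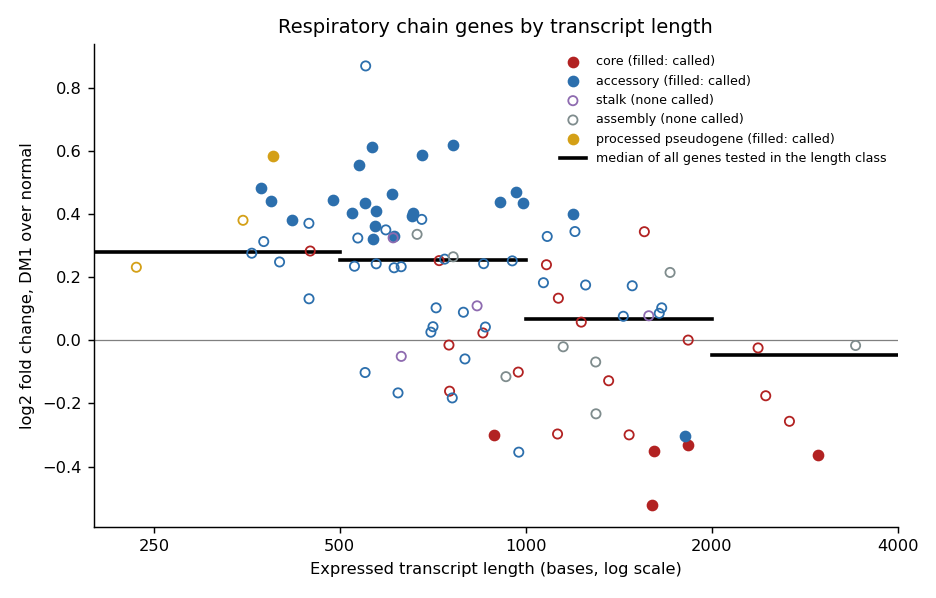
Log2 fold change of each tested member (edgeR, DM1 over normal) against its expressed transcript length in bases on a log scale, coloured by role, with filled points for members called at an adjusted p under 0.05. Black lines give the median of all tested genes in each length class, which falls from 0.28 under 500 bases to -0.05 from 2000 to 4000 bases.

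The calls by role were also counted within length classes, in which the core subunits are few and no difference between the roles was tested. From 500 to 1000 bases, 16 of 37 accessory subunits were upregulated and none downregulated (median 0.32). Of 6 core subunits in this class, none was upregulated and 1 was downregulated (median -0.06). The shares of all genes were 12.6% and 1.6%. From 1000 to 2000 bases, 1 of 10 accessory subunits was upregulated and 1 downregulated (median 0.17). Of 11 core subunits in this class, 0 were upregulated and 3 downregulated (median -0.13, all genes 7.69% and 5.11%). Under 500 bases, 4 of 9 accessory subunits were upregulated and 0 downregulated (all genes 11.2% and 0.0889%), and the 1 core subunit was not called. From 2000 to 4000 bases, 0 of 4 core subunits were upregulated and 1 downregulated (all genes 5.35% and 11.1%), with no accessory subunits.

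The comparison was therefore repeated with an offset that removes, library by library, the trend of expression on length. Under the length offset, 2 members were upregulated (*Ndufb3* and *Uqcrq*) and 11 downregulated, against 6.34% and 6.58% of all tested genes, and the median of the members was -0.02. All 6 downregulated members kept their call, and *Atp5d*, *Atp5g1*, *Ndufa11*, *Ndufb8* and *Ndufv1* were added. With GC content in the offset as well, 4 were upregulated (*Cox6a2*, *Ndufb11*, *Ndufb4* and *Uqcrq*) and 10 downregulated, against 7.84% and 8.42%, with a median of -0.04. In the fits without an offset, with the length offset and with the length and GC offset, *Uqcrq* was upregulated each time and *Atp5b*, *Ndufa10*, *Ndufs7* and *Uqcrc1* were among those downregulated each time. The call of *Uqcrq* was lost with the offset on annotated length (0.056, adjusted p = 0.70), which was chosen after seeing the data. The 22 core subunits had 0 upregulated and 8 downregulated members under the length offset (median -0.20), and the 56 accessory subunits had 2 and 3 (median 0.03). The offset left the median of all tested genes under 500 bases at -0.15, below 0, and it would also take away a true group difference that follows length.

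**Figure D3:**
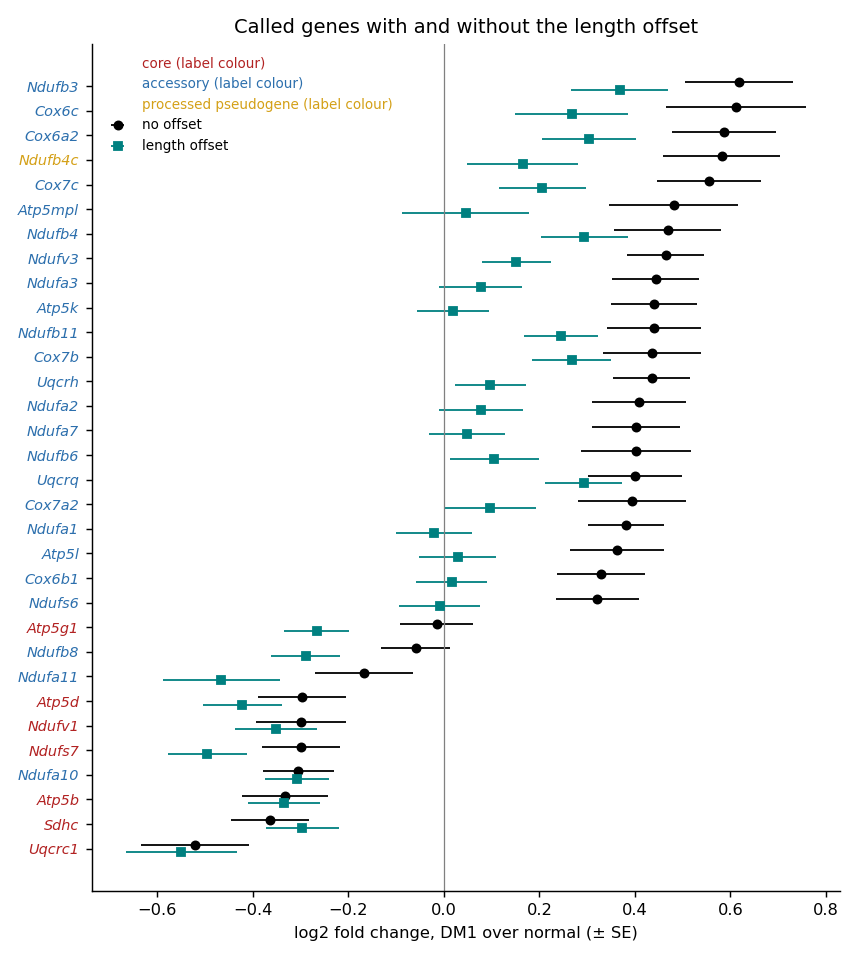
Log2 fold change ± SE of members called in the fit without an offset (black circles) or with the length offset (green squares), sorted by the former. Upregulated accessory subunits move toward 0 under the offset, while the genes below 0 stay below it, *Sdhc* somewhat closer to 0 (-0.30) than without the offset (-0.36).

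*Uqcrc1*, core protein 1 of complex III (ENSMUSG00000025651, chr9:108936633-108949623 on GRCm38, plus strand), showed the largest decrease. It had 55.0, 45.9 and 50.6 CPM (counts scaled by library size, TMM) in the normal libraries and 32.4, 33.0 and 40.2 in the DM1 libraries. The groups did not overlap, and the log2 fold change was -0.52 ± 0.11 (SE; adjusted p = 0.0176, edgeR) and -0.55 under the length offset (adjusted p = 0.0191). In contrast, the hinge protein gene *Uqcrh* (ENSMUSG00000063882, chr4:116066965-116075071, minus strand), whose product helps complex III pass electrons to cytochrome c, had 232, 256 and 237 CPM in the normal libraries and 329, 334 and 318 CPM in the DM1 libraries. Its increase of 0.43 ± 0.08 (adjusted p = 0.0101) became 0.10 under the length offset (adjusted p = 0.446). *Uqcrq* (ENSMUSG00000044894, chr11:53427922-53430831, minus strand), a small accessory subunit named for ubiquinone binding, had 102, 105 and 92.8 CPM in the normal and 145, 131 and 119 CPM in the DM1 libraries. Its log2 fold change was 0.40 ± 0.10 (adjusted p = 0.0271) and 0.29 under the length offset (adjusted p = 0.0479). Among the 8 complex III members, 2 were upregulated and 1 downregulated, too few to read against the shares of all genes. The other core genes among these members, *Uqcrc2* (0.0006) and the Rieske protein gene *Uqcrfs1* (-0.13), did not pass the test. *Cyc1*, which the symbol rule leaves out, was downregulated (-0.39, adjusted p = 0.0152, edgeR) and is counted below among the electron carriers.

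**Figure D4:**
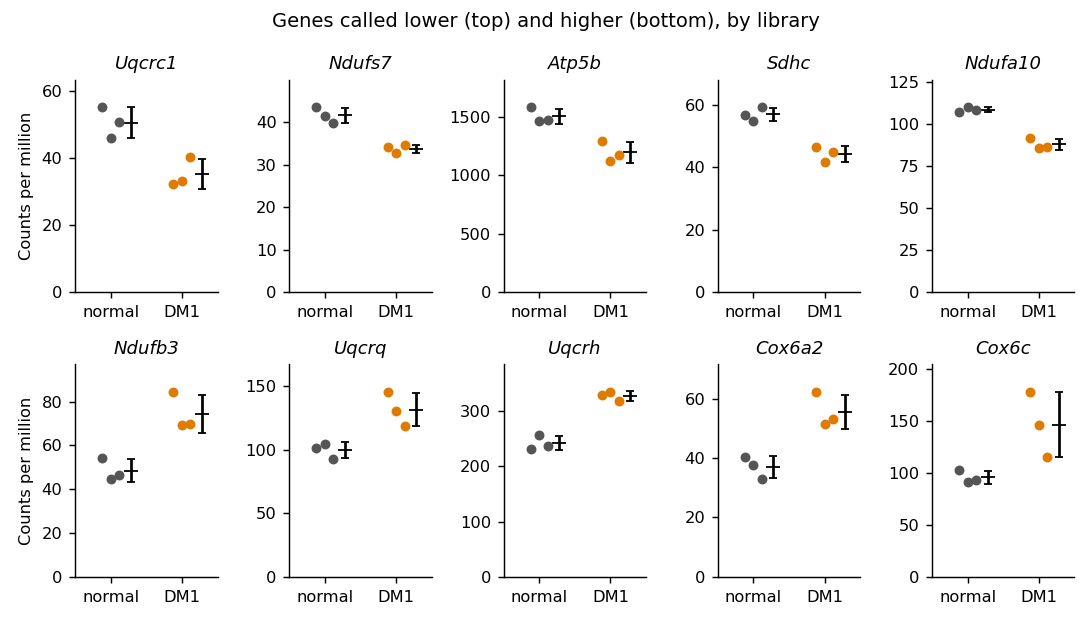
CPM in each library of 5 downregulated genes (top) and 5 upregulated genes (bottom), with the mean ± SD of the 3 libraries beside the points and each axis starting at 0. The normal and DM1 libraries do not overlap in any of the 10 genes, with *Uqcrc1* at 45.9 to 55.0 against 32.4 to 40.2 CPM.

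In complex I, 11 of the 40 tested genes were upregulated and 3 downregulated (all genes 7.13% and 8.73%), the downregulated share being no larger than that of all genes. The downregulated genes included the core gene *Ndufs7*, which carries the iron-sulfur cluster next to the quinone-binding site. *Ndufs7* had 43.5, 41.5 and 39.8 CPM in the normal and 34.1, 32.7 and 34.5 CPM in the DM1 libraries, and the groups did not overlap (log2 fold change -0.30 ± 0.08, adjusted p = 0.0391). Its call was lost with library sizes alone (adjusted p = 0.0675), with no filter beyond 1 count (0.0505) and with the replicate block (0.0622). The call was also lost on TPM with limma-trend (0.0684 with a pseudocount of 1 and 0.0659 with 0.1). Of the 6 fits leaving out a library, *Ndufs7* was called in 1. With the length offset, the decrease of *Ndufs7*, a transcript of 887 bases, was -0.50 (adjusted p = 0.0083). *Ndufv1*, which binds NADH and flavin, had a log2 fold change of -0.30 (adjusted p = 0.0644) and was downregulated with the length offset (-0.35, adjusted p = 0.0325). The core genes *Ndufs1*, *Ndufs3*, *Ndufs8* and *Ndufv2* had log2 fold changes between -0.10 and 0.34, none of which passed the test.

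*Ndufa10*, the only accessory subunit gene downregulated, encodes a subunit related to nucleoside kinases. It had 107, 110 and 108 CPM in the normal libraries and 91.6, 85.7 and 86.0 CPM in the DM1 libraries (-0.30 ± 0.07, adjusted p = 0.0267, and -0.31 under the length offset, adjusted p = 0.0215). The smallest p among the upregulated complex I genes belonged to *Ndufv3*, an accessory subunit beside the NADH-oxidizing module, at 119, 128 and 131 CPM in the normal and 181, 173 and 168 CPM in the DM1 libraries (0.46 ± 0.08, adjusted p = 0.0082). The membrane arm subunit gene *Ndufb3* had 54.5, 44.6 and 46.3 CPM in the normal and 84.4, 69.1 and 69.7 CPM in the DM1 libraries (0.62 ± 0.11, adjusted p = 0.0097), a rise to 1.53-fold. The groups did not overlap for any of these genes. Under the length offset the values were 0.15 for *Ndufv3* (adjusted p = 0.210) and 0.37 for *Ndufb3* (adjusted p = 0.0472). The small membrane-anchored subunit gene *Ndufa1*, with 419 bases, went from 0.38 ± 0.08 (adjusted p = 0.0154) to -0.02 (adjusted p = 0.896), and *Ndufa3*, with 488 bases, from 0.44 ± 0.09 (adjusted p = 0.0142) to 0.08 (adjusted p = 0.621). The other upregulated genes were *Ndufa2*, *Ndufa7*, *Ndufb4*, *Ndufb6*, *Ndufb11*, *Ndufs6* and *Ndufb4c*, between 0.32 and 0.58. *Ndufb4c* is annotated as a processed pseudogene and its counts may include reads of *Ndufb4*, so its call is uncertain. None of the 8 Ndufaf assembly factor genes was called in the main edgeR fit (all genes 7.13% and 8.73%). In 2 of them the groups were separated (all genes 37.2%). The most abundant, *Ndufaf2*, had a log2 fold change of 0.34 (adjusted p = 0.0641). It alone was called by DESeq2 (all genes 10.9% and 12.2%). It alone had an unadjusted p under 0.05 (all genes 14.7% and 16.0%). *Ndufaf2* was called by edgeR with counts divided by 4 (adjusted p = 0.0453) and without DM1 library 3 (0.0369).

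Complex II has 4 subunits, all encoded in the nucleus. *Sdhc*, a membrane anchor of the quinone site (ENSMUSG00000058076, chr1:171127165-171150603, minus strand), had 56.8, 54.8 and 59.1 CPM in the normal and 46.4, 41.5 and 44.7 CPM in the DM1 libraries (-0.36 ± 0.08, adjusted p = 0.0196). With the length and GC offset its value was -0.23 (adjusted p = 0.0576). *Sdha*, the flavoprotein that oxidizes succinate, had 187, 173 and 183 CPM in the normal and 160, 145 and 149 CPM in the DM1 libraries, separated groups with a log2 fold change of -0.26 ± 0.08 (adjusted p = 0.0640). The iron-sulfur subunit gene *Sdhb* (0.13) and the second anchor gene *Sdhd* (0.06) had overlapping groups.

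In complex IV, 6 of the 16 tested genes were upregulated and 0 downregulated (all genes 7.13% and 8.73%), as against 8 and 0 at an unadjusted p under 0.05 and by DESeq2 (all genes 14.7% and 16.0%, and 10.9% and 12.2%). All nuclear subunits of this complex are accessory, since the mitochondrial genome encodes its catalytic core. *Cox6c*, a small subunit in the inner membrane, had 103, 91.4 and 93.8 CPM in the normal and 178, 147 and 116 CPM in the DM1 libraries (0.61 ± 0.15, adjusted p = 0.0266). *Cox7c* had 107, 108 and 94.8 CPM in the normal and 173, 145 and 137 CPM in the DM1 libraries (0.56 ± 0.11, adjusted p = 0.0124). DM1 library 1 was the highest for each of them and the groups did not overlap. The other upregulated genes were *Cox6a2* (0.59), *Cox7b* (0.44), *Cox7a2* (0.39) and *Cox6b1* (0.33). Under the length offset none of the 6 was called, with log2 fold changes between 0.02 for *Cox6b1* and 0.30 for *Cox6a2*. The median of the 16 genes was 0.27 without and 0.03 with the length offset.

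Several complex IV subunits come as pairs in which 1 gene is used mainly in heart and skeletal muscle. The muscle isoform *Cox6a2* had 40.2, 37.8 and 33.0 CPM in the normal and 62.2, 51.5 and 53.2 CPM in the DM1 libraries (0.59 ± 0.11, adjusted p = 0.0101), while its partner *Cox6a1* had a log2 fold change of 0.24 (adjusted p = 0.0727). Of the summed TPM of the pair, *Cox6a2* took 18.0%, 15.8% and 14.2% in the normal and 21.3%, 17.9% and 19.1% in the DM1 libraries. These shares, 16.0% ± 1.88 and 19.5% ± 1.69 (SD, n = 3), overlapped (exact two-sided permutation p = 0.2, adjusted p = 0.467 over 7 shares tested). With 3 libraries against 3 the smallest possible p is 0.1, so no share could pass the test. The muscle isoform *Cox7a1* took 9.50% ± 1.89 of its pair with *Cox7a2* in the normal and 8.55% ± 1.20 in the DM1 group (exact permutation p = 0.4), and *Cox8b* took 7.77% ± 4.58 of its pair with *Cox8a* in the normal and 8.89% ± 2.28 in the DM1 group (exact permutation p = 0.7). *Cox4i1* had 251, 171 and 177 CPM in the normal and 329, 163 and 225 CPM in the DM1 libraries, and *Cox8a* had 171, 65.4 and 133 against 109, 164 and 71.2 CPM, so that libraries of 1 group differed more than the groups did. *Ndufa4*, named for complex I but known as a subunit of complex IV, had a log2 fold change of 0.23 (adjusted p = 0.392), and its paralog *Ndufa4l2* took under 0.290% of their summed TPM in every library.

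The 5 members that failed the filter were nearly silent. *Cox4i2*, the lung isoform, had 8 counts in DM1 library 1 and 0 elsewhere, and *Cox6b2*, a testis isoform, had 4 counts in DM1 library 3 and 0 elsewhere. *Cox8c* and a second gene ID of *Atp5o* (ENSMUSG00000116933) had 0 counts in every library, and since a fragment can give several counts of 75 bases, no upper limit is given. The processed pseudogene *Ndufa11b* had 5, 0 and 2 counts in the normal and 3, 2 and 3 counts in the DM1 libraries.

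In complex V, 3 of the 17 tested genes were upregulated and 1 downregulated (all genes 7.13% and 8.73%), the downregulated share being no larger than that of all genes. *Atp5b*, the catalytic beta subunit and the most abundant member at a mean of 1198 TPM (ENSMUSG00000025393, chr10:128083273-128090391, plus strand), had 1583, 1468 and 1473 CPM in the normal libraries and 1295, 1120 and 1176 CPM in the DM1 libraries. The groups did not overlap (-0.33 ± 0.09, adjusted p = 0.0377), and with the length offset the value was -0.33 (adjusted p = 0.0244). The call of *Atp5b* was lost with no filter beyond 1 count and with limma-trend on log2(TPM + 1). Of the 6 fits leaving out a library, *Atp5b* was called in 2. The other F-type head subunits *Atp5a1* (-0.18), *Atp5c1* (0.24), *Atp5d* (-0.30) and *Atp5e* (0.28) did not pass the test, although *Atp5d* was downregulated under the length offset (-0.42, adjusted p = 0.0148). *Atp5k*, subunit e at the interface of ATP synthase dimers, had 38.4, 41.0 and 44.7 CPM in the normal and 58.6, 57.5 and 52.3 CPM in the DM1 libraries (0.44 ± 0.09, adjusted p = 0.0146). *Atp5l* (subunit g, 0.36) and the proteolipid gene *Atp5mpl* (0.48) were also upregulated, and under the length offset the 3 genes lay between 0.02 and 0.05. The membrane ring of complex V is built from an identical peptide encoded by *Atp5g1*, *Atp5g2* and *Atp5g3*. *Atp5g1* took 18.6%, 19.3% and 20.2% of their summed TPM in the normal and 18.2%, 18.1% and 18.0% in the DM1 libraries, separated groups at the smallest p possible (exact permutation p = 0.1, adjusted p = 0.467).

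Summed per complex, the TPM of the DM1 libraries lay above that of the normal libraries in complex III alone and below it in complex II alone. Complex III had 2258, 2161 and 1971 TPM in the normal and 2475, 2408 and 2303 TPM in the DM1 libraries. Complex II had 500, 440 and 430 TPM in the normal and 427, 392 and 420 TPM in the DM1 libraries. The groups overlapped in complex I (4783 ± 242 and 5073 ± 257 TPM, mean ± SD, n = 3), complex IV (3598 ± 402 and 4078 ± 89.3 TPM) and complex V (6231 ± 503 and 6034 ± 309 TPM). The separation depended on the scaling. Summed as CPM, complexes I and IV lay higher in every DM1 library, and complexes II and V overlapped. Complex III had 889.58, 903.55 and 845.99 CPM in the normal and 1164.7, 1050.3 and 903.62 CPM in the DM1 libraries, so that normal library 2 and DM1 library 3 were nearly equal. Complex I had 2461, 2476 and 2430 CPM in the normal and 2940, 2668 and 2558 CPM in the DM1 libraries. Complex IV had 1517, 1378 and 1395 CPM in the normal and 1985, 1761 and 1585 CPM in the DM1 libraries. Complex II had 473, 451 and 456 against 476, 416 and 400 CPM. No test was run on these sums, in which a few abundant genes weigh most.

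**Figure D5:**
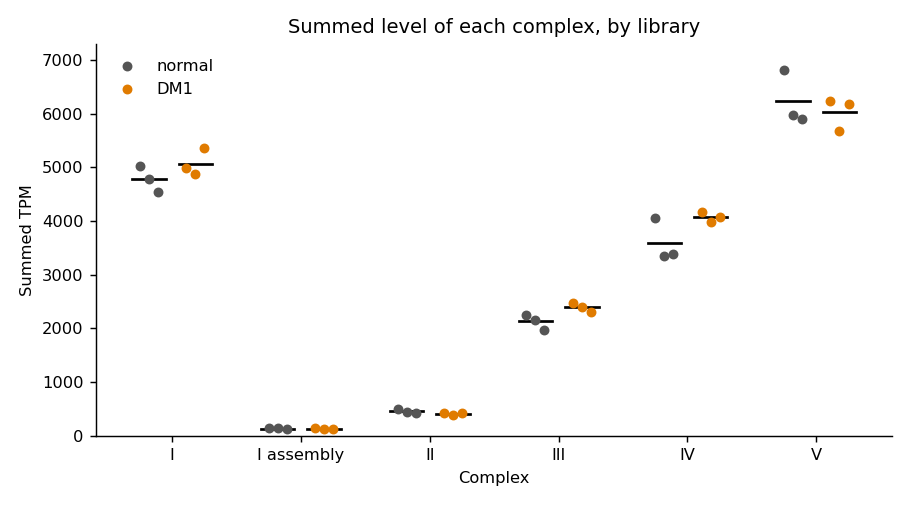
Summed TPM of the members of each complex in every library, with a black line at the mean of the 3 libraries of a group. In TPM the groups are separated in complexes II and III and overlap in complexes I, IV and V. In summed CPM, not shown, they are separated in complexes I and IV and overlap in complexes II and V. In complex III, normal library 2 (903.55 CPM) and DM1 library 3 (903.62 CPM) are nearly equal.

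Promoters were read for members that moved, to show the letters of factors known to drive respiratory genes. RefSeq promoters (GRCm38.p6) were matched for 76 of the 98 members, and the 250 bases before the start were searched on both strands for TGCGCATGC (NRF1), CCGGAAG (GABPA), AAGATGGC (YY1), CAAGGTCA (ERR) and GGGCGG (SP1). YY1 letters can share bases with GABPA letters, since AAG ends one and begins the other. The upstream windows of *Atp5l* (chr9:44920743-44920992, minus strand) and *Uqcrh* (chr4:116075071-116075320, minus strand), both upregulated, and of *Uqcrc1* (chr9:108936398-108936647, plus strand), downregulated, are shown 5′ to 3′ with motif matches in capitals. They were chosen after the search, and the last 15 bases of the *Uqcrc1* window lie inside the annotated gene:
Atp5l: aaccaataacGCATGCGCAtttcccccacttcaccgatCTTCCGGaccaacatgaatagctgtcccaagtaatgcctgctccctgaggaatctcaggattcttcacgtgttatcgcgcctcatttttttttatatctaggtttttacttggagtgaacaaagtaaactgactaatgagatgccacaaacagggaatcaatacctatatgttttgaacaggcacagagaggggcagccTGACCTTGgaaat
Uqcrh: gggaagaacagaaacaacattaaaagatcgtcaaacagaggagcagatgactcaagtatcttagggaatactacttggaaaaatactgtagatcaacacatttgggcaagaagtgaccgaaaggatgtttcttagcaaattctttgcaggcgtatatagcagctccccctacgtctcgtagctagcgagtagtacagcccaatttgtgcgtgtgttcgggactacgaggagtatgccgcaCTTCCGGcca
Uqcrc1: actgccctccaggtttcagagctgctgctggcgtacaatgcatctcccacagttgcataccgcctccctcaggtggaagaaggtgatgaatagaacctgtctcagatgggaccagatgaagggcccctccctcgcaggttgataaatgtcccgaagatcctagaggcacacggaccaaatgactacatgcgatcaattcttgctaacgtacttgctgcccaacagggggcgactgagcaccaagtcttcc
The *Atp5l* window holds the NRF1, GABPA and ERR letters, all on the opposite strand, *Uqcrh* holds the GABPA letters beside its start, and *Uqcrc1* holds none of the 5 motifs. The GABPA letters were in 14 of 76 members (18.4%) and in 7.83% of 27025 genes. These 27025 are all genes with a RefSeq promoter, expressed in these cells or not, so they are not matched to the members in level. Those of NRF1 were in 5.26% of members and 1.47% of genes, of ERR in 3.95% and 1.51%, of YY1 in 1.32% and 1.83%, and of SP1 in 40.8% and 35.4%. Of 16 upregulated members with a promoter, 4 held the GABPA, 6 the SP1, 1 the NRF1, 1 the ERR and 0 the YY1 letters. Of 4 downregulated members, 2 held the SP1 letters and 0 any of the others. These matches describe the sequence and are not measured sites.

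Other genes of mitochondrial energy production were counted as well, to be read against the 7.13% of all tested genes upregulated and the 8.73% downregulated. The regulator gene *Ppargc1a*, the coactivator PGC-1alpha, had 2.32, 2.01 and 2.34 TPM in the normal and 1.01, 1.19 and 1.60 TPM in the DM1 libraries (-0.78 ± 0.13, adjusted p = 0.0082), and of the 10 tested regulators 2 were downregulated, the other being *Ppargc1b*, and 0 upregulated. Of 14 tricarboxylic acid cycle genes, 3 were downregulated (*Cs* and *Dlst* among them) and 0 upregulated (median log2 fold change -0.11). Of 15 electron carrier genes, 3 were downregulated (*Cyc1*, *Coq5* and *Coq8a*) and 0 upregulated. Of 44 assembly factors outside the rule, 3 were upregulated (*Cox18*, *Pet100* and *Higd1a*) and 4 downregulated (*Sco1*, *Taco1*, *Lrpprc* and *Atpaf1*), shares near those of all genes. None of the 13 protein-coding genes of the mitochondrial genome was called by edgeR without an offset, none had an unadjusted p under 0.05 and none was called by DESeq2. With the length offset *mt-Nd4l* was downregulated (-0.47), and with the length and GC offset *mt-Nd4l* (-0.38) and *mt-Nd2* (-0.37) were. Apart from *Ppargc1a*, these names were chosen after their values were seen.

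The cytosolic ribosomal protein genes, which have short transcripts (median 833 bases) and another function, were taken as a comparison for length. Of 97 tested, 63 were upregulated and 0 downregulated (median log2 fold change 0.53, all genes 7.13% and 8.73%). In the class of 500 to 1000 bases, which holds their median length, 12.6% of all genes were upregulated and 1.6% downregulated. With the length offset 31 were upregulated and 0 downregulated (median 0.28, all genes 6.34% and 6.58%).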

How the data were processed

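Total RNA of 6 C2C12 libraries was analysed. Per the labels, the authors trimmed reads with Trim Galore, aligned them to GRCm38 with HISAT2 and quantified genes with StringTie (versions, read length and strand setting are not given in the sources used here). They deposited a table of unnormalized counts per gene and, per library, tables of coverage, FPKM and TPM, which StringTie scales for length and depth. All 6 count columns were used. The deposited coverage showed that a count equals 75 bases (it matched within 1 count in 99.3% of single-transcript genes of each library), and FPKM was not used.

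Counts were filtered (filterByExpr, minimum count 10), scaled by TMM and tested over 19005 genes with edgeR 4.0.16 (R 4.3.3, quasi-likelihood, robust, Benjamini-Hochberg). The SE is the log2 fold change divided by the root of its F statistic. Genes were annotated with GENCODE M21. Expressed length is the count divided by the TPM, scaled on single-transcript genes. Coverage had been planned for this, but gave implausible lengths for genes with several transcripts. The length offset is a loess trend (span 0.4) of log2 CPM on length in each library. Isoform shares used SciPy 1.17.1, and DESeq2 1.42.0 and limma 3.58.1 served as alternatives. The methods were tested on simulated data.

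Members, lists and roles were chosen with earlier results of these data known. Members were named by rule: in each complex up to 4 genes per direction with the smallest p, isoform pairs, complex II, the most abundant member, members failing the filter, and up to 4 calls lost and 4 gained under the offset. Further called members, and genes of other lists except *Myh3*, *Myh8* and *Ppargc1a*, were named after their values were seen. Reads of near-identical pseudogenes may be split by the counting, and *Ndufb2*, *Ndufb8*, *Ndufb9*, *Atp5g2* and *Atp5o* share exonic bases with other genes. Between libraries of a group, on counts divided by 4 because a fragment gives several counts, chi-square over its degrees of freedom was between 9.89 and 36.6, and none was treated as a duplicate. Some members and listed genes are not reported here by name.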

Additional observations from a re-analysis of the deposited data

How the results depend on the processing

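Upregulated and downregulated members numbered 22 and 6, with a median log2 fold change of 0.23. DESeq2, its size factors, library sizes alone, other filters, fits without robust estimation, counts divided by 4 and summed overlapping genes left the upregulated count between 18 and 30, and the downregulated count between 4 and 7. The members past both cutoffs stayed at 0 in every alternative run, glmTreat included, and the pairs of lowest and highest counts over the fits leaving out a library were 4 and 34 upregulated, 0 and 7 downregulated, and a median of 0.093 and 0.26. The length offset gave 2 and 11 (median -0.017), the length and GC offset 4 and 10 (-0.038), and the offset on annotated length, chosen after seeing the data, 1 and 9 (-0.011). Limma-trend called 0 and 0 members on log2(TPM + 1), with a median of 0.095, and 0 and 1 on log2(TPM + 0.1), also 0.095, settings that shifted the median of all genes by -0.077 and -0.11. The cause of these differences was not tested beyond the offsets' own construction.

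Libraries with the same number in the 2 groups deviated together weakly (correlations of 0.07, 0.02 and 0.03), and normal library 3 correlated best with DM1 library 2, so the numbers are not taken as pairs. With the replicate block, 22 members were upregulated and 6 downregulated, of which 19 and 5 were also called without it. *Ndufs7* lost its call with the block (adjusted p = 0.0622), and *Uqcrq* with the block and the length offset (adjusted p = 0.0509). The block gave 2 and 10 (median -0.023) with the length offset and, chosen after seeing the data, 5 and 14 (-0.032) with the length and GC offset. The shares of all genes called in the fits with the block were not counted. These counts therefore cannot be read against a background, and the same holds for the annotated length offset and limma-trend.

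Under the length offset, 28 of the 93 tested members changed sign. For the members named by rule, the sign changes were in genes that were uncalled or lost their call, with log2 fold changes as follows. Under the length offset they were -0.021 for *Ndufa1*, -0.043 for *Sdhd*, -0.0074 for *Cox4i1*, -0.085 for *Cox6a1*, -0.17 for *Cox7a1*, -0.16 for *Cox8b*, -0.092 for *Ndufa4* and -0.017 for *Atp5g2*. Under the length and GC offset they were -0.021 for *Ndufa1*, -0.077 for *Sdhd*, -0.012 for *Cox6a1*, -0.13 for *Cox7a1*, -0.13 for *Cox8b* and -0.12 for *Ndufa4*. Under the annotated length offset they were -0.00054 for *Ndufa1*, -0.043 for *Sdhd*, -0.022 for *Cox6b1*, -0.067 for *Cox6a1*, -0.12 for *Cox7a1*, -0.14 for *Cox8b*, -0.14 for *Ndufa4*, 0.042 for *Atp5g1* and -0.060 for *Atp5g2*. With the replicate block and the length offset they were -0.023 for *Ndufa1*, -0.048 for *Sdhd*, -0.035 for *Cox4i1*, -0.085 for *Cox6a1*, -0.17 for *Cox7a1*, -0.17 for *Cox8b*, -0.099 for *Ndufa4* and -0.021 for *Atp5g2*. With the block and the length and GC offset they were -0.024 for *Ndufa1*, -0.080 for *Sdhd*, -0.010 for *Cox6a1*, -0.13 for *Cox7a1*, -0.14 for *Cox8b* and -0.12 for *Ndufa4*. On log2(TPM + 1) they were -0.075 for *Sdhd* and -0.00011 for *Sdhb*. On log2(TPM + 0.1) they were -0.075 for *Sdhd* and -0.000092 for *Sdhb*. With a library left out the log2 fold change lay between -0.039 and 0.14 for *Sdhd*, between -0.031 and 0.47 for *Cox4i1*, between -0.45 and 0.21 for *Cox8a* and between -0.043 and 0.016 for *Atp5g1*, each on both sides of 0.

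The members with 0 to 8 counts failed the filter and could not be tested. Whether depth or the 3 libraries per group limited the results of the others was not tested.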
